A study of Mus musculus with 6 samples.

Results

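The results follow 10 genes that mark classes of cortical interneurons: the neuropeptide precursors Sst, Npy, Vip, Cck, Tac1, Penk and Crh, the calcium-binding proteins Calb1 and Calb2, and Nxph1. They were taken by symbol, and all 10 were found among 20367 genes listed in every one of 6 RNA-seq libraries. Nxph1 encodes neurexophilin 1, a secreted ligand of neurexins, and is neither a classical neuropeptide nor a calcium-binding protein. The libraries came from cortices of C57BL/6J embryos that carried a GFP reporter for Tbr2 (Eomes), inherited from a heterozygous parent, together with an mRFP reporter for doublecortin (DCX) from a homozygous parent. Sorting by fluorescence gave double-colored cells, taken as neurons derived from intermediate progenitors (IPN), and cells of red color alone, taken as other neurons (non-IPN). The embryos used carried both reporters, so the populations differ in the sort gate and not in genotype. Both populations were sampled at 3 ages (E13.5, E15.5, E16.5) with 1 library per age, and 3 values in a row are in order of age. The E15.5 pair was made from 1000000 cells per population with no amplification named, and the E13.5 and E16.5 pairs from 10000 cells per population with whole-transcriptome amplification. The labels name no individual animals.

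Cortical interneurons use GABA as transmitter, arise in the ganglionic eminences of the ventral forebrain and migrate into the cortex during the ages sampled here. Their classes are told apart by the peptides they store in dense-core vesicles beside GABA and by the calcium buffers that fill their cytoplasm. Somatostatin (Sst) and neuropeptide Y (Npy) mark cells from the medial ganglionic eminence for the most part, while vasoactive intestinal peptide (Vip), calretinin (Calb2) and many cholecystokinin (Cck) cells come from the caudal eminence. Several of these genes are not confined to interneurons: Cck is made by many projection neurons, Calb2 by Cajal-Retzius cells, and Tac1 and Penk by striatal projection neurons.

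Column totals of the deposited values ran from 12583677 to 32538995, and levels are given in parts per 1000000 of the column total (ppm). The values had been scaled before deposit, so read depth is unknown and no counting interval is given. A deposited value of 1 was worth 0.0307 to 0.0795 ppm, and a gene listed at 0 is not shown to be absent. Eomes was at 98.4 to 437 ppm in IPN and 72.0 to 214 in non-IPN, and its difference did not pass the test (limma, log2 difference 0.79 ± 0.22 (SE), adjusted p = 0.101). Dcx was above 855 ppm in all 6 libraries. The 15 genes listed as markers of GABA and ganglionic eminence neurons summed to 214.1 to 268.1 ppm in IPN and 1953.5 to 6876.2 in non-IPN. Of these sums Satb1 made up 146, 95.8 and 156 ppm in IPN and 201, 510 and 376 in non-IPN. The Satb1 difference did not pass (limma, -1.24 ± 0.33, adjusted p = 0.0806).

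Sst, Npy, Calb1, Nxph1 and Tac1 were lower in IPN than in non-IPN, with log2 differences of -7.92 to -3.95. Cck, Calb2, Penk, Crh and Vip did not pass the test, and none of the 10 was called higher in IPN (limma; 5 of the 10 had an unadjusted p below 0.05, all 5 called). The difference was fitted with limma on log2(deposited value + 1) over 19561 genes with age as a term, so that each age gave 1 pair, and fold changes of low genes are understated. Calls are at a Benjamini-Hochberg adjusted p below 0.05. Of all genes tested, 2.41% were called lower in IPN and 0.982% higher (3.39% in either direction), against 5 and 0 of the 10. Of the 10910 genes that reached 10 ppm in at least 1 library, 3.38% were called lower; 6 of the 10 genes reached that level. The median log2 difference was -2.52 over the 10 genes and -0.02 over all genes tested. None of the 5 passed in limma without the age term that pairs the libraries (adjusted p = 0.243 to 1.0), or without the trend and robust settings (0.0712 to 0.248). The ages were the only replication, so the p-values measure how a difference varied across 3 ages. In bulk RNA, fewer cells of a type and less RNA per cell cannot be told apart, which holds for every difference below.

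**Figure D1:**
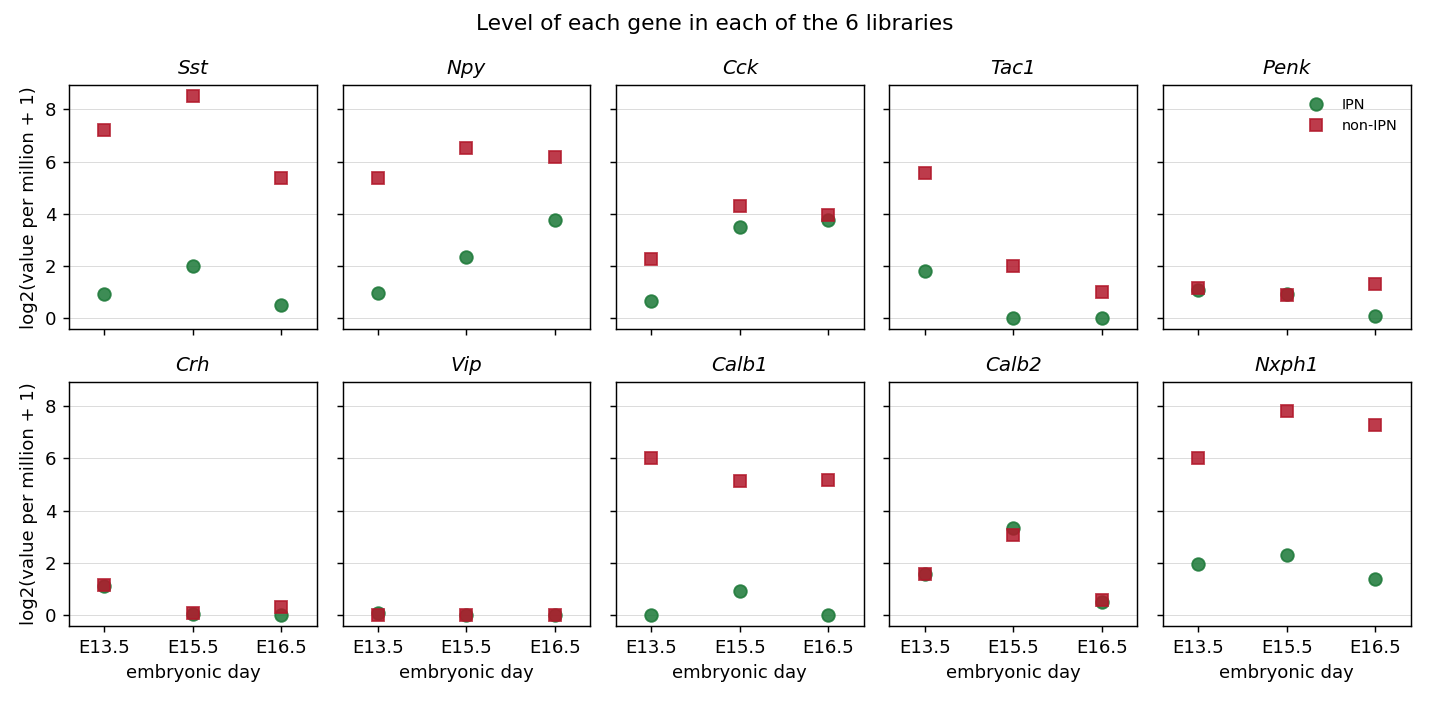
Level of each of the 10 genes as log2(value in ppm + 1), vertical axis, at each embryonic day, horizontal axis, with 1 point per library (green circles IPN, red squares non-IPN). In Sst, Npy, Calb1 and Nxph1 all 3 non-IPN points lie above all 3 IPN points, while in Calb2 and Cck the points of both populations lie close together at the later ages and in Vip all points lie at or near 0.

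In Sst, Npy, Calb1 and Nxph1, all 3 IPN libraries were below all 3 non-IPN libraries in value in ppm. Over all genes tested this held for 6.55%. In the other direction, all IPN above all non-IPN, it held for 0 of the 10 genes and 1.43% of genes tested.

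Promoter sequence is shown as a description, and no link between a motif and a level was tested. RefSeq promoter entries (build GRCm38.p6; the deposited files name mm9) were found for 6 of the 10 genes. The last 100 bases before the annotated start are printed 5′ to 3′, and capitals mark matches to the cAMP response element TGACGTCA, its core TGACG and the homeodomain core TAATTA on either strand. A full element holds an overlapping core match on each strand. The windows are chr16:23890845-23890944 (Sst, minus strand), chr6:49822610-49822709 (Npy, plus), chr6:7554961-7555060 (Tac1, plus), chr6:8949919-8950018 (Nxph1, plus), chr9:121495695-121495794 (Cck, minus) and chr10:5639118-5639217 (Vip, plus).
Sst: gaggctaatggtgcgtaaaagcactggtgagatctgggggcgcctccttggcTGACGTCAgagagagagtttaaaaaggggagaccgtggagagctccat
Npy: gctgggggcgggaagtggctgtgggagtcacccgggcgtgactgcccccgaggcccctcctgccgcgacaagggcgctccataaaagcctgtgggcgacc
Tac1: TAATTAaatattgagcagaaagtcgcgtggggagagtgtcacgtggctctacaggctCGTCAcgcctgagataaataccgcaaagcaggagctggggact
Nxph1: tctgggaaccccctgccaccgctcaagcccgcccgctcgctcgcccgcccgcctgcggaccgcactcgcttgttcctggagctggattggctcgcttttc
Cck: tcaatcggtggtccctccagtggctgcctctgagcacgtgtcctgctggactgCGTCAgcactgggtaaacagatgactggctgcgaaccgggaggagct
Vip: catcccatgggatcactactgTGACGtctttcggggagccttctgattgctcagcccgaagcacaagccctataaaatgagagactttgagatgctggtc

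The search covered the 250 bases before each start. Sst alone of the 6 held the full element, at positions -48 to -41 counted from the start, and 1.55% of the 32851 promoter windows in the table held it. Tac1 held the core at -43 to -39 and at -197 to -193, Cck at -47 to -43 and Vip at -79 to -75. The core was present in 17.8% of all windows. Tac1 also held TAATTA at -100 to -95, a match present in 4.84% of windows. Npy and Nxph1, both called lower in IPN, held none of the 3 motifs in this window. Cck and Vip, which held the core, were not called. Vip was listed at 0 in 5 of 6 libraries, so its lack of a call carries no information. The remaining genes had no promoter entry, and motifs and calls were not compared by a test.

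Sst encodes preprosomatostatin, the source of an inhibitory peptide that acts on Gi-coupled receptors. In non-IPN it was at 147, 364 and 40.2 ppm. In IPN it was at 0.90, 3.01 and 0.41 ppm. The groups did not overlap, and the non-IPN level was 163, 121 and 98.0 times the IPN level at the 3 ages. The fitted log2 difference was -6.71 ± 0.42 (SE, 3 pairs; limma adjusted p = 2.89e-05). The differences at the single ages, -7.10, -6.85 and -6.18, lay within 1 log2 unit of each other. Sst is the gene with the full cAMP response element in the promoter printed above, whose part in these levels was not tested.

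Npy encodes neuropeptide Y, a peptide stored by many Sst cells and by neurogliaform cells. Its levels in non-IPN were 40.6, 91.3 and 70.9 ppm. In IPN it was at 0.97, 4.03 and 12.7 ppm. The groups did not overlap, with the E16.5 IPN library the nearest to the non-IPN range. The log2 difference was -3.95 ± 0.53 (limma adjusted p = 0.00246), and it was -5.15, -4.44 and -2.26 at the 3 ages. The non-IPN level was 41.9 times the IPN level at E13.5 and 5.60 times at E16.5. A test of whether the difference moved with embryonic day gave 0.88 ± 0.27 log2 units per day for Npy (limma, 1 residual degree of freedom, adjusted p = 0.110), which missed the threshold. With values rescaled to a common column total or by median of ratios it passed (adjusted p = 0.022 and 0.0132). In that test with the values as deposited, 0.624% of all genes were called with a positive and 0.68% with a negative term (1.3% in all), against 0 of the 10 (limma; 3 of the 10 had an unadjusted p below 0.05). The population difference of Npy no longer passed without the E15.5 pair (adjusted p = 0.137, log2 difference -3.71).

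**Figure D2:**
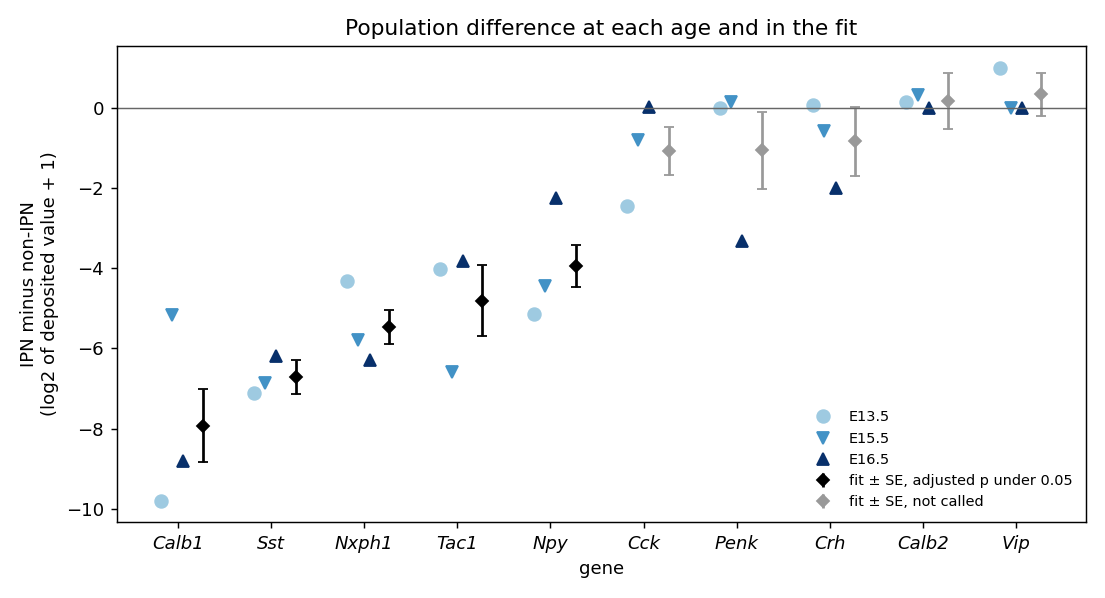
IPN minus non-IPN difference in log2(deposited value + 1), vertical axis, for each gene, horizontal axis, with blue symbols for single ages and diamonds with bars for the fitted difference ± SE over 3 pairs (black called, grey not called). Sst has single-age values from -7.10 to -6.18, Nxph1 from -6.29 to -4.32, Calb1 spreads from -9.79 to -5.17, and Npy and Cck are less negative at the later ages.

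Nxph1 is secreted and binds alpha-neurexins at the cell surface. It was at 64.2, 226 and 155 ppm in non-IPN and at 2.84, 3.93 and 1.64 in IPN. No IPN library came near the non-IPN range. The log2 difference was -5.46 ± 0.42 (limma adjusted p = 0.00012). At the single ages it was -4.32, -5.78 and -6.29. Its population by day term was -0.67 ± 0.22 per day and did not pass (adjusted p = 0.141).

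Calb1 encodes calbindin, an EF-hand protein that buffers calcium. In non-IPN it was at 63.2, 34.3 and 35.5 ppm. In IPN it was listed at 0 at E13.5 and E16.5 and stood at 0.89 ppm at E15.5. The groups did not overlap, and the fitted log2 difference was -7.92 ± 0.91 (limma adjusted p = 0.00127). Because of the zeros its size depends on the pseudocount, and with a pseudocount of 5 it was -6.32. At E15.5, where both libraries were above 0, the non-IPN level was 38.5 times the IPN level.

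Tac1 encodes the precursor of substance P and neurokinin A. It was at 46.7, 3.03 and 1.03 ppm in non-IPN. In IPN it was at 2.52 ppm at E13.5 and listed at 0 at the later ages. The groups overlapped, since the E13.5 IPN library lay above the E16.5 non-IPN library, but within each age IPN was lower. The log2 difference was -4.81 ± 0.89 (limma adjusted p = 0.014). It did not pass without the E13.5 pair (adjusted p = 0.0535) or without the E15.5 pair (adjusted p = 0.226). Striatal neurons also make Tac1. Of 13 striatal markers Ikzf1 was called lower in IPN and Ppp1r1b higher, and the median log2 difference of the list was 0.53. Ikzf1 was at 15.1, 17.1 and 16.6 ppm in non-IPN and at most 0.34 in IPN. All 12 microglia and macrophage markers were also lower in IPN, and which cells held the Ikzf1 RNA was not tested. The striatal list summed to 493.6, 511.9 and 878.9 ppm in IPN and 656.6, 179.1 and 415.1 in non-IPN. Most of each sum was Meis2, at 360, 301 and 663 ppm in IPN and 576, 90.2 and 257 in non-IPN, so the sums mainly follow 1 gene. The part of striatal neurons in the Tac1 difference was not tested.

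Cck encodes cholecystokinin. It was at 3.86, 18.9 and 14.4 ppm in non-IPN and at 0.58, 10.4 and 12.5 in IPN. The groups overlapped. The log2 difference of -1.08 ± 0.60 did not pass (limma adjusted p = 0.494). The non-IPN level was 6.64, 1.81 and 1.15 times the IPN level, and the population by day term of 0.83 ± 0.34 did not pass (adjusted p = 0.236).

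Calb2 encodes calretinin, the EF-hand relative of calbindin. It was at 2.00, 9.0 and 0.41 ppm in IPN and at 2.00, 7.46 and 0.48 in non-IPN. The non-IPN level was 0.999, 0.829 and 1.16 times the IPN level, with a fitted log2 difference of 0.16 ± 0.70 (limma adjusted p = 0.945). The standard error leaves room for differences of more than 1 log2 unit in either direction. Markers of Cajal-Retzius cells, which make calretinin, were not called by limma in either direction (0 of 7, 1 at an unadjusted p below 0.05), and Reln was at 306 to 688 ppm in IPN and 304 to 1509 in non-IPN. Their part in the Calb2 values was not tested.

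Penk, Crh and Vip were at most at 1.51 ppm in any library. Penk encodes proenkephalin, the source of opioid peptides, and was at 1.10, 0.92 and 0.07 ppm in IPN and 1.22, 0.86 and 1.51 in non-IPN. Crh encodes corticotropin-releasing hormone and was at 1.16, 0.03 and 0 in IPN and 1.22, 0.06 and 0.24 in non-IPN. Vip was listed at 0 in 5 of 6 libraries and had a deposited value of 1 in IPN at E13.5. The log2 differences of Penk (-1.06 ± 0.96), Crh (-0.84 ± 0.87) and Vip (0.33 ± 0.54) did not pass (limma adjusted p = 0.716, 0.768 and 0.830). Only Penk and Crh at E16.5 showed a gap of at least 2 log2 units, and in IPN the deposited values there were 1 and 0.

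Between E13.5 and E16.5, the amplified ages, Cck rose and Tac1 fell over both populations. Cck differed by 2.96 ± 0.73 on the log2 scale (limma, same fit, E16.5 minus E13.5, adjusted p = 0.0413) and Tac1 by -5.43 ± 1.09 (adjusted p = 0.0188). Over all genes tested 3.76% rose and 2.26% fell (6.02% in all), against 1 and 1 of the 10. Within populations the Cck difference was 4.20 in IPN and 1.73 in non-IPN, and that of Tac1 was -5.32 and -5.55, each from 1 library per age. The Cck call was lost when the IPN library of E13.5 (adjusted p = 0.0823) or E16.5 (0.292), the non-IPN library of E16.5 (0.14) or the pair of E15.5 (0.17) was left out. The Tac1 call was lost without any 1 library of these ages (adjusted p = 0.0553 to 0.203) or without the E15.5 pair (0.0642). Neither passed in limma without the population term (adjusted p = 0.176 for Cck and 0.33 for Tac1) or without trend and robust (0.237 and 0.192), and Cck did not pass with a pseudocount of 5 (0.0657) or median-of-ratios scaling (0.0557).

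The other genes were not called between these ages. Sst differed by -1.56 ± 0.51 (limma adjusted p = 0.104), with -1.10 in IPN and -2.02 in non-IPN, and it passed when the IPN library of E13.5 was left out (adjusted p = 0.0441). Npy differed by 2.09 ± 0.65 (adjusted p = 0.0878), Crh by -3.21 ± 1.07 (0.109) and Calb2 by -2.12 ± 0.86 (0.186). Nxph1 had -0.85 in IPN and 1.12 in non-IPN, which nearly cancel in the fit (0.14 ± 0.52, adjusted p = 0.909). Calb1 (-0.49 ± 1.12), Penk (-1.51 ± 1.18) and Vip (-0.50 ± 0.66) had standard errors above or near their estimates.

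Within non-IPN the levels were also set against the 15 GABA and ganglionic eminence genes, whose sum was 1953.5, 6876.2 and 4059.6 ppm. Nxph1 amounted to 3.29%, 3.29% and 3.82% of that sum, and Npy to 2.08%, 1.33% and 1.75%. Sst amounted to 7.53%, 5.30% and 0.991%. Tac1 was at 2.39%, 0.044% and 0.0254%, and Calb1 at 3.24%, 0.499% and 0.875%. Cck was at 0.198%, 0.275% and 0.354%. By the ratio of highest to lowest percent, Nxph1 thus kept the narrowest range relative to the GABA neuron genes among these 6, and Tac1 the widest. These are ratios of single libraries with no test, and the E15.5 library differs from the other libraries in amplification.

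**Figure D3:**
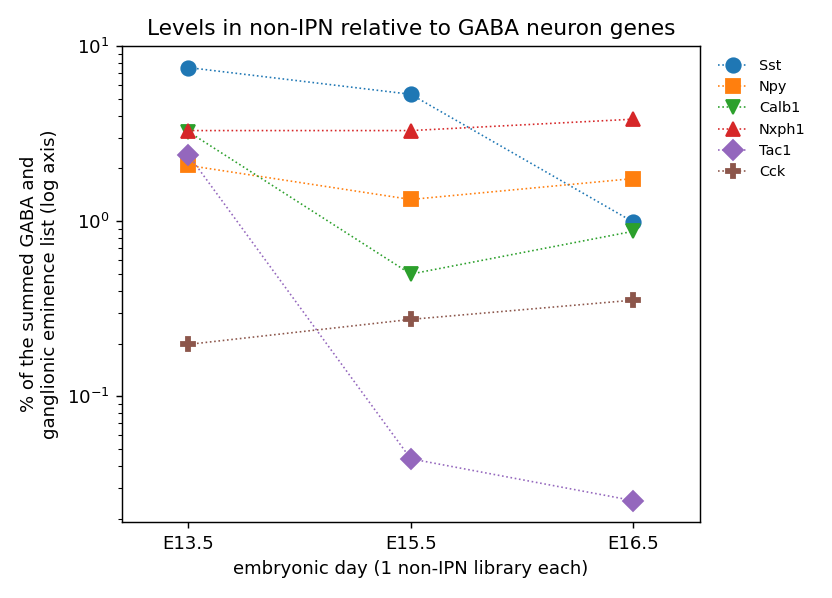
Level of 6 genes in non-IPN as a percent of the summed level of 15 GABA and ganglionic eminence genes, vertical log axis, at each embryonic day, with 1 library per point and dotted lines only to guide the eye. Nxph1 stays between 3.29% and 3.82%, Sst goes from 7.53% to 0.991% and Tac1 from 2.39% to 0.0254%.

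To compare genes with each other, levels were divided by exon length (GENCODE vM21, union of exons of the basic transcripts, not the authors' annotation). In ppm per kilobase, the order in non-IPN at E13.5 was Sst (204), Npy (71.8), Tac1 (38.0), Nxph1 (19.6), Calb1 (15.0) and Cck (3.32). At E15.5 it was Sst (505), Npy (161), Nxph1 (68.9), Cck (16.3), Calb1 (8.13), Calb2 (4.28) and Tac1 (2.46). At E16.5 Npy (125) stood above Sst (55.8) and Nxph1 (47.3), followed by Cck (12.4) and Calb1 (8.41). Over the 3 libraries the length-scaled ranges of Sst and Npy overlapped, as did those of Sst and Nxph1, of Calb1 and Cck, and of Tac1 with all but Npy and Sst of these 6, so these orders are not separated by the spread. In IPN the highest length-scaled levels were those of Npy (22.4 at E16.5), Cck (10.8 at E16.5 and 8.97 at E15.5) and Npy at E15.5 (7.11), and no other gene exceeded 5.17, the value of Calb2 at E15.5.

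Genes that act with these peptides were then examined as lists of their pathway. Of 24 peptide receptors and neurexins, 2 were lower in IPN and 0 higher, with a median log2 difference of -0.03. The presynaptic neuropeptide Y receptor Npy2r was at 18.02, 23.8 and 22.2 ppm in non-IPN and at 0, 0.28 and 1.23 in IPN (-6.03 ± 0.85, limma adjusted p = 0.00343; 0.132 without the E15.5 pair). Nrxn3, a neurexin and so of the family that neurexophilins bind, was at 118, 470 and 448 ppm in non-IPN and at 0.84, 6.55 and 5.4 in IPN (-6.38 ± 0.30, adjusted p = 8.39e-06). Its relative Nrxn2 did not pass (-0.19 ± 0.39, limma adjusted p = 0.865). None of the 5 somatostatin receptors passed in limma: the estimates of Sstr1, Sstr2 and Sstr3 were positive (1.49 ± 1.0, 1.84 ± 0.63 and 2.78 ± 0.77, adjusted p = 0.603, 0.203 and 0.0951) and those of Sstr4 and Sstr5 negative (-1.27 ± 0.80 and -0.33 ± 0.62, adjusted p = 0.559 and 0.849). The sign was not the same at every age, since Sstr1 was at 36.8, 3.84 and 12.1 ppm in IPN and at 2.29, 17.5 and 2.46 in non-IPN. These single receptors and neurexins beside Npy2r and Nrxn3 are named for being partners of the genes above, after their values were seen.

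Of the neurexophilins beside Nxph1, Nxph2 was lower in IPN. It was at 53.7, 159 and 92.4 ppm in non-IPN and at 0.78, 1.97 and 0.89 in IPN (-6.16 ± 0.43, limma adjusted p = 5.6e-05). Nxph3 and Nxph4 did not pass and had estimates of the opposite sign (1.86 ± 0.74 and 2.23 ± 0.87, adjusted p = 0.296 and 0.276). At E15.5 they were at 104 and 39.8 ppm in IPN and at 15.3 and 4.72 in non-IPN.

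Of 13 genes of peptide processing and dense-core vesicles, Cadps2 alone was called. This priming factor of dense-core vesicle release was at 31.7, 20.3 and 28.4 ppm in non-IPN and at 0.19, 0.80 and 0.41 in IPN (-5.68 ± 0.68, limma adjusted p = 0.00149). The list had a median of 0.45, and its summed level was 1010.6 to 2572.0 ppm in IPN and 1293.7 to 1556.1 in non-IPN. Of 14 other neuropeptide genes, Pnoc, the precursor of nociceptin, was lower in IPN (-3.75 ± 0.80, adjusted p = 0.0298). It was at 2.86, 7.81 and 3.02 ppm in non-IPN and at most 0.80 in IPN, and the call was lost when any 1 age was left out (adjusted p = 0.0827, 0.313 and 0.0852, by the age left out). The median of that list was 0.38.

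Of 18 other EF-hand genes, 0 passed in limma in either direction (4 at an unadjusted p below 0.05), with a median of 0.54. Calm2, a calmodulin gene chosen by mean level in ppm, had a difference of 0.66 ± 0.21 (limma adjusted p = 0.169). Parvalbumin (Pvalb), a marker of another large interneuron class named here for that reason, was at most at 0.22 ppm in any library. Of 11 genes of the cAMP response, which acts through the element printed for Sst, 0 passed in limma (0 at an unadjusted p below 0.05). The factors Creb1 (0.04 ± 0.21) and Atf1 (0.04 ± 0.26) had estimates near 0 whose sign turned with scaling to a common column total (-0.10 for both).

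The same lists were read between E13.5 and E16.5, where 3.76% of all genes tested rose and 2.26% fell (6.02% in all). Of the 24 receptors and neurexins, 2 rose and 2 fell. The cholecystokinin receptor Cckar was at 69.1, 1.32 and 0.89 ppm in IPN and at 25.5, 0.32 and 0.24 in non-IPN (limma, E16.5 minus E13.5, log2 difference -6.37 ± 0.83, adjusted p = 0.00364), while its ligand Cck rose. Tacr3, a receptor for tachykinins, fell with Tac1 (-4.71 ± 1.05, adjusted p = 0.0291). Nrxn3 rose (2.14 ± 0.37, adjusted p = 0.011). Of the 18 EF-hand genes 2 rose (Ncs1, Necab1) and 1 fell (Scgn, secretagogin), of the 3 neurexophilins 1 rose (Nxph3), and of the 11 cAMP genes 1 rose (Crtc1) and 1 fell (Atf1). In the processing list and the other neuropeptides 0 passed in limma (1 of 13 and 2 of 14 at an unadjusted p below 0.05). The genes of this paragraph other than those named before are called genes of each list, named after their values were seen.

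**Figure D4:**
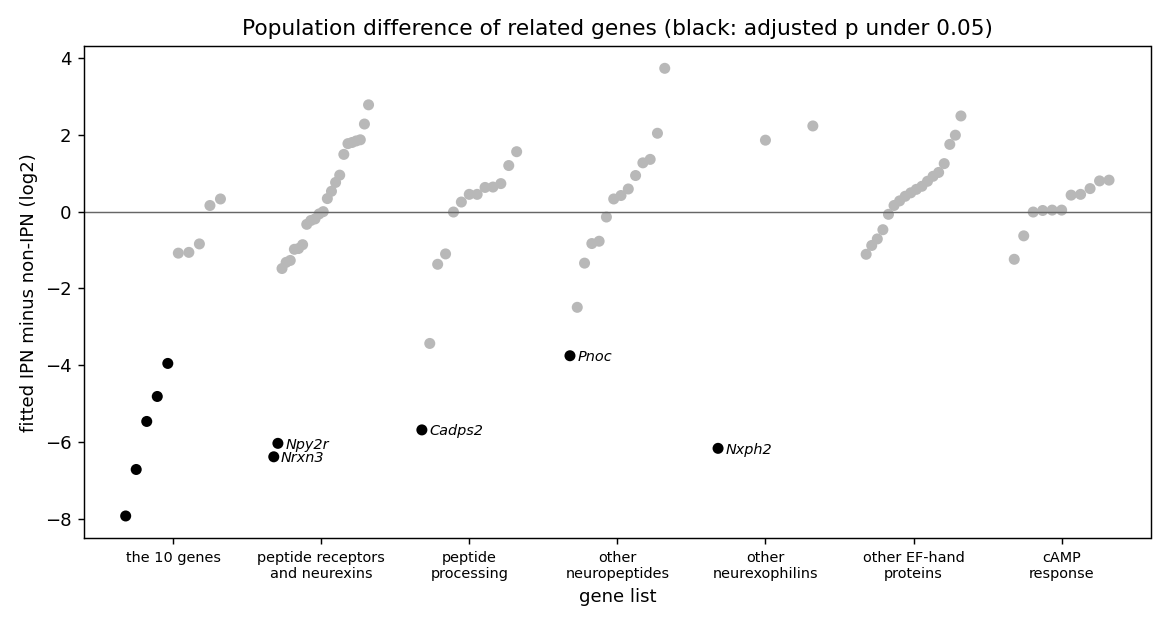
Fitted IPN minus non-IPN log2 difference, vertical axis, for the 10 genes and for each gene of 6 related lists, horizontal axis, with called genes in black. Outside the 10 genes only Npy2r, Nrxn3, Cadps2, Pnoc and Nxph2 are called, all below 0.

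The genes Tac1 and Nxph1 lie on chromosome 6, as do the interneuron transcription factors Dlx5 and Dlx6, with 6 measured genes between Tac1 and Nxph1. The stretch below was defined by its end genes, so the calls at its ends are no test of the stretch. In the order of measured protein-coding genes from Dlx6 to Nxph1 (RefSeq, GRCm38.p6), Dlx6 (-5.18 ± 0.88), Dlx5 (-6.58 ± 0.72), Tac1 and Nxph1 were called lower in IPN. None of the 7 measured genes between Dlx5 and Nxph1 other than Tac1 was called by limma (0 of 7, 3 at an unadjusted p below 0.05), and their log2 differences ran from -1.02 to 1.04. Of the 20 nearest measured neighbors of the 10 genes, 1 on each side, only Trak1 beside Cck was called (0.96 ± 0.22, limma adjusted p = 0.0421, higher in IPN). The low neighbors, such as Rtp2 beside Sst at a mean of 0.04 ppm, carry little information.

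The genes with the most similar profile over the 6 libraries were listed for the 6 genes that reached 10 ppm, by Pearson correlation of log2(value in ppm + 1) among 9344 genes with a mean of at least 10 ppm. With 6 points that share library and age effects, these are descriptions only. Genes with a large population difference in the same direction correlate through that difference, so a high r between them largely restates it. Nxph1 was closest to Maf (r = 0.997), a transcription factor of medial eminence interneurons that macrophages also express, and to Wls and Nxph2 (both 0.996). Calb1 was closest to Cadps2 (0.996), Car2 (0.994) and Cd180 (0.993). Sst was closest to Apoe, C130022K22Rik (both 0.993) and Arsb (0.988), and Npy to Zdhhc2 (0.985), Elmo1 (0.984) and Nfkb1 (0.977). The correlation ignores the size of a change. Apoe and Arsb were called lower in IPN (log2 differences -5.35 and -2.27, limma adjusted p = 0.000344 and 0.00149). C130022K22Rik was not (-0.29, limma adjusted p = 0.727), against -6.71 for Sst. Cck was closest to Csgalnact2 (0.991), Birc6 (0.986) and Polr2m (0.985), and Tac1 to Snx3 (0.989), Gnpda1 (0.987) and Ndc80 (0.985). The genes closest to Cck and Tac1 were not called between the populations (limma adjusted p = 0.318 to 0.905). Among the 6 genes themselves, r was 0.95 for Sst with Calb1, Sst with Nxph1 and Calb1 with Nxph1, and -0.39 for Cck with Tac1.

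Markers of other cell types moved with the same gate. All 12 microglia and macrophage markers were lower in IPN, with summed levels of 2.2 to 6.3 ppm in IPN and 494.0 to 978.0 in non-IPN; in IPN 1 of the 12 was listed at 0 at E13.5 and 5 at E16.5. Of 15 GABA and ganglionic eminence markers, 13 were lower. Of 11 projection neuron markers, 8 were higher in IPN, with sums of 4461.9 to 6495.3 ppm in IPN and 738.0 to 3233.3 in non-IPN, the highest non-IPN sum being at E16.5. Red blood cell markers summed to 49268.4 ppm in the E13.5 non-IPN library and to at most 277.9 in any other library. Radial glia markers summed to 399.3 to 1312.2 ppm in IPN and 665.2 to 5207.0 in non-IPN, with 1 of 10 called lower. Of 9 caudal eminence markers, 3 were lower and 1 higher. The part of these cells in the differences of the 10 genes was not tested. Without the E13.5 pair, which holds the library with the high red blood cell markers, Sst (log2 difference -6.51), Npy (-3.35), Calb1 (-6.99) and Nxph1 (-6.04) were called lower in IPN by limma, and Tac1 was not (-5.2, adjusted p = 0.0535). That fit also leaves out an age, and it does not test the part of red blood cells or of any other cell type.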

How the data were processed

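The submitters' processing notes name TopHat 1.2.0, CASAVA 1.9, SAMtools 0.1.18, edgeR and the mm9 build. What each did, how genes were counted and how values were scaled is not stated there. The deposited values are whole numbers per gene symbol and were taken as a scaled signal, because the upper quartile of genes lay at 1502 and 1501 in the libraries of E15.5 and 438 to 444 in the other 4, although column totals differed. The 6 files were joined by symbol. Of 20373 rows, 6 rows of 3 symbols listed 2 times were dropped, and the 19561 genes above 0 in at least 1 library were tested. No 2 libraries held the same values.

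Values were fitted as log2(value + 1) in limma 3.58.1 under R 4.3.3, with a variance trend, robust moderation and Benjamini-Hochberg adjustment over all genes and a threshold of 0.05. The first model had population and age (2 residual degrees of freedom, median prior 8.3); the second added population by day (1 residual, median prior 14.5), so calls lean on the spread of other genes. Age pairs the populations because both were sorted from cortices of that age, per the labels. The fit was tried on simulated data without age or amplification effects, which cannot show how it handles those effects in the real libraries. Leave-out fits used genes above 0 in a complete pair. Alternatives were pseudocount, scaling, filter, moderation, pairing and leaving out libraries. Named genes were the 10 genes, up to 4 called genes per related list or the 2 highest where none was called, and the 3 closest profiles of each gene reaching 10 ppm; others are marked where named or are partners, neighbors and cell type markers. The genes and lists were chosen with earlier results of these data known. Some genes that this rule names are not reported here. Protein sequences were not used here.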

Additional observations from a re-analysis of the deposited data

Results flagged for a closer look

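Between E13.5 and E16.5 Nxph1 differed by -0.85 on the log2 scale in IPN and by 1.12 in non-IPN, so that the estimates had opposite signs in the 2 populations. Penk differed by -3.17 in IPN and by 0.15 in non-IPN, at deposited values of at most 19 in these 4 libraries. Each value comes from 1 library per age. The population by day term, which tests such a difference over all 3 ages, did not pass for Nxph1 (limma adjusted p = 0.141) or Penk (adjusted p = 0.48). Groups of 3 libraries were too small to look for single libraries far from the others.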

How the results depend on the processing

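The 5 population calls had the same direction in every alternative that tested them; Tac1 has a mean below 10 ppm and left the filtered set. All 5 passed with both other pseudocounts, both rescalings and without the E16.5 pair. Without the E15.5 pair 3 passed (Sst, Calb1 and Nxph1) and 54 genes were called in all, against 664; the range over left-out pairs was 3 to 5 of the 10 genes and 54 to 595 genes. Genes with a mean of at least 10 ppm gave 358 calls. No genes were called by limma without the age term that pairs the populations (no replicate block: 0 genes, 0 of the 10; 676 at an unadjusted p below 0.05), or without trend and robust (0 and 0; 1946 at an unadjusted p below 0.05). The number of the 10 genes with all 3 IPN libraries below all 3 non-IPN libraries was 4, against 6.55% of genes tested. With 1 pair left out it was 5 to 7 (7 without the E13.5 pair). These alternatives were chosen after seeing the data and compare fewer libraries, which separate more easily. Their share over all genes was not computed, so the higher counts are not read as a gain.

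For E16.5 minus E13.5, 1178 genes were called, 697 with a pseudocount of 5, and 70 to 2085 with libraries left out, where 0 to 1 of the 10 rose and 0 to 1 fell. Cck did not pass with a pseudocount of 5 or median-of-ratios scaling (0 rising), and Tac1 was not among genes with a mean of at least 10 ppm (0 falling). Without the population block, or without trend and robust, 0 genes passed, 0 of the 10 rising and 0 falling (3368 and 3414 at an unadjusted p below 0.05). The population by day count of 255 was 530 and 162 with pseudocounts of 0.5 and 5, 1445 and 1558 with a common total and median of ratios (1 of the 10, Npy, in each), 135 in the filtered set and 0 without trend and robust (2321 at an unadjusted p below 0.05). Signs turned for values that did not pass: population differences of Creb1 (-0.10 with a common total, -0.12 to 0.23 with a pair left out), Atf1 (-0.10, and -0.25 to 0.24) and Penk (-1.66 to 0.07); the day term of Tac1 (0.56 with a pseudocount of 5); and the age differences with 1 library left out of Calb1 (-1.89 to 0.91, and 0.17), Nxph1 (-0.72 to 0.99, and -0.48) and Penk (-3.21 to 0.19). The cause was not tested. A common total moved the median population difference of all genes to -0.15 from -0.02. Depth is unknown, so values near 0 have no stated precision.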
